A study of Neurospora crassa with 8 samples.

Results

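Of the 1060 lincRNA genes in the polysome list, 231 were of medium length and lay close to another listed lincRNA gene, and these clustered genes are described here. Among the listed genes, they were chosen by position alone. Their length, counted from NC10 start to NC10 end, was above 301 bp and below 1001 bp, and the distance to the nearest other listed lincRNA gene on the same chromosome, of any length and measured from end to start, was below 5000 bp. A further 296 lincRNA genes of the same length class had their nearest listed neighbor at 5000 bp or more and served for comparison. The polysome values did not enter this choice among the listed genes. The list itself had been cut by polysome count, however, so a removed transcript could not count as a neighbor.

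Long intergenic noncoding RNAs (lincRNAs) are transcribed by RNA polymerase II from the stretches between coding genes and lack a long open reading frame. An mRNA under translation carries several ribosomes and sediments with the polysomes in a sucrose gradient, so RNA from these fractions is used to ask which transcripts are engaged by ribosomes. In *Neurospora crassa*, a filamentous ascomycete and a model of circadian rhythms and blue light responses, the best known noncoding RNA is *qrf*, the antisense transcript of the clock gene *frq*.

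The polysome values came from 1 pooled sample of wild type mycelia, strain 74-OR23-1VA (FGSC 2489). After a light phase, the liquid cultures spent 22 h in the dark, with a harvest each 2 h, and received cycloheximide beforehand to hold ribosomes on the RNA. For the coding genes beside the clusters, 4 strand-specific RNA-seq libraries of the same strain were used, taken from mycelia after 24 h without light and at 0, 30, 60 or 120 min of the light treatment that followed. The other 3 libraries of the series, from constant light (wild type, Δ*wc1* and Δ*wc2*), were not used here. Each lincRNA gene has 1 polysome value, the log of the read count after normalization by the total count and by length. The list does not give the base of this log, which was taken as natural (ln) as in the detection of the transcription units. There is thus no replicate, the number of reads behind a value is unknown, and no p-value was calculated, since genes of 1 sample are not replicates. The values were not divided by the total RNA level of each transcript, so RNA abundance and association with ribosomes cannot be told apart. The paper itself described its lincRNAs as not present in polysomes. The list holds no coding gene, so markers of mycelia could not be checked in it. Its upper end, at 1.45, was set when the authors removed transcripts above the median polysome count of coding genes. The paper later returned most of the removed transcripts to its lincRNA set because they lacked coding potential. They are missing from the list, and so from all spacings, clusters and densities given here.

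The list moves in steps of 50 bp, so the clustered genes spanned from 351 bp (31 genes) to 951 bp (16 genes). Directly outside the class, 23 close-lying genes of 301 bp and 12 of 1001 bp were left out. The clustered genes with the widest spacing lay 4900 bp from their neighbor. On chromosome 1 these were the genes from 4428100 to 4428550, with a polysome value of 0.50 ln, and from 4439500 to 4440300 (1.12 ln). On chromosome 2 they lay from 2424900 to 2425400 (1.29 ln) and from 2430300 to 2431200 (0.70 ln). The nearest genes beyond the limit, at 5000 bp, were on chromosome 1 from 5668150 to 5668550 (0.35 ln), from 5673550 to 5673950 (0.31 ln) and from 7445200 to 7446100 (0.85 ln). All coordinates of lincRNA genes are those of NC10.

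When consecutive listed lincRNA genes less than 5000 bp apart were joined, the 231 clustered genes fell into 163 clusters, which also held 82 lincRNA genes of up to 301 bp and 87 of 1001 bp or more. Most clusters were small. A pair made up 110 of them, 39 held 3 lincRNA genes, 11 held 4, 2 held 6 and 1 held 7. A single mid-length gene was present in 100 clusters, 2 in 58 and 3 in 5, and only 39 of the 163 clusters consisted of mid-length genes alone. The clusters spanned from 801 to 14551 bp with a median of 3351 bp, of which the listed genes covered a median of 49.3%. The nearest neighbor was itself of medium length for 112 clustered genes (48.5%), shorter for 64 (27.7%) and longer for 55 (23.8%). The median polysome value of the neighbor was 0.575 ln where it was short, 0.775 ln where it was of medium length and 0.90 ln where it was long, while that of the clustered genes beside them was 0.725, 0.75 and 0.81 ln in the same order.

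The 14 clusters of 4 or more held 63 lincRNA genes, of which 21 were of medium length, 25 long and 17 short. A complete coding gene lay inside 5 of these clusters, and 9 held none. The largest lay on chromosome 3 from 2606800 to 2621350, between *bek-1* (NCU00097) and NCU00100, with the coding gene NCU00099 inside. Its only mid-length gene, the first of the 7 with 551 bp, had a polysome value of 0.19 ln, the lowest in that cluster, and the other 6 had 1.15, 0.55, 0.62, 0.71, 0.24 and 0.88 ln. A cluster of 6 on chromosome 6 from 519900 to 534050 lay beside the nitrite reductase gene *nit-6* (NCU04720), with the coding gene NCU04719 inside. This cluster began with the clustered gene of the highest polysome value of all, 1.45 ln over 451 bp. Its further lincRNA genes had 1.19, 0.88, 0.99, 0 and 0.66 ln, so this cluster spanned the full range of the list. In the other cluster of 6, on chromosome 5 from 2076350 to 2084900, the mid-length gene had 1.21 ln, above the 0.35, 0.50, 1.04, 0.90 and 0.62 ln of its neighbors. The tightest of the 14 lay on chromosome 5 from 3243750 to 3246800, where 2 mid-length genes with 0.56 and 0.74 ln alternated with short ones of 0.35 and 0.55 ln. The other clusters each held 4 lincRNA genes.

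Both mid-length genes of a cluster could be close in value or far apart. On chromosome 2 from 2234550 to 2245900, beside the histidine kinase gene *nik-2* (NCU01833), the mid-length genes had 0.78 and 1.05 ln next to 0.99 and 1.29 ln. The coding gene NCU01834 lies between these mid-length genes. On chromosome 3 from 1089600 to 1095800, beside *thi-4*, a gene of thiamine synthesis, they had 0.48 and 0.63 ln between neighbors of 1.31 and 0.79 ln. On chromosome 7 from 3669700 to 3678800 they were at 0.69 and 0.26 ln, with neighbors of 0.95 and 0.19 ln. Wide differences were found on chromosome 5, where the mid-length genes had 1.28 and 0.28 ln from 5125200 to 5130650 and 0.41 and 1.17 ln from 1677500 to 1685650. The second of these clusters also held a lincRNA gene at 0 and the coding genes NCU04561 and NCU04560. In 4 clusters with a single mid-length gene, its value was 0.44 ln (chromosome 1 from 524850 to 535500), 0.79 ln (chromosome 1 from 6787050 to 6793550), 1.02 ln (chromosome 1 from 8076200 to 8084450) and 0.54 ln (chromosome 3 from 645250 to 652500). In the last of these it was the lowest of the cluster, below 1.40, 1.09 and 1.07 ln. The cluster from 524850 to 535500 also held the coding gene NCU07468.

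Across the 14 clusters, the mid-length genes had a lowest value of 0.19 ln, a median of 0.69 ln and a highest of 1.45 ln. The difference between the highest and the lowest lincRNA gene of one cluster had a median of 0.86 ln and was never below 0.39 ln. Members of the large clusters thus did not share one polysome level. Over all 163 clusters the median of this difference was 0.57 ln. A difference between extremes grows with the number of genes, and equally large sets of distant genes were not compared.

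**Figure D1:**
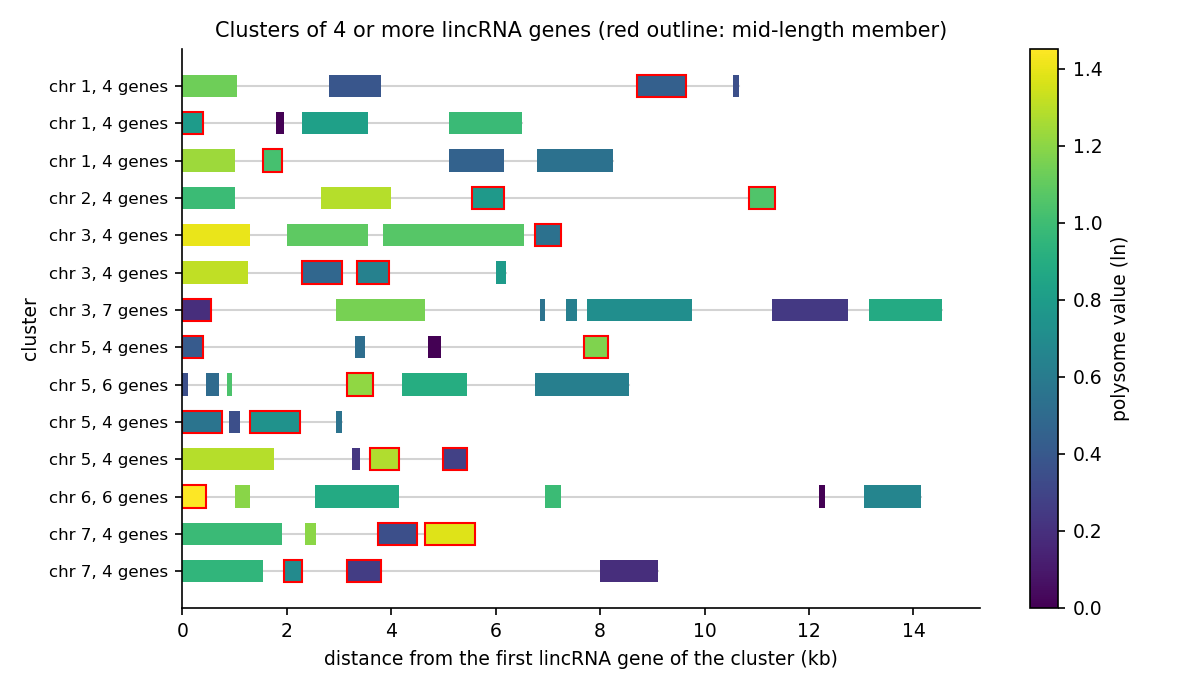
The 14 clusters of 4 or more lincRNA genes, 1 per line in the order of chromosome and position, with the distance from the first lincRNA gene in kb on the horizontal axis. Boxes are lincRNA genes to scale, their color is the polysome value (ln), and red outlines mark the 21 clustered mid-length genes. The highest and the lowest value of a line differ by 0.39 to 1.45 ln, the most on chromosome 6.

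In 5 clusters, 3 mid-length genes followed each other with no other listed lincRNA gene. Those on chromosome 1 from 6767500 to 6778300 had uniformly high values of 1.19, 1.14 and 1.26 ln although they lay 4700 and 4250 bp apart. Those on chromosome 3 from 1777900 to 1781500, beside the calcium/calmodulin-dependent kinase gene *camk-3* (NCU06177), were spaced by 1000 bp and had middling values of 0.65, 0.62 and 0.65 ln. On chromosome 2 from 23550 to 29850, all 3 were low or middling with 0.10, 0.05 and 0.51 ln. The remaining 2 were mixed. On chromosome 2 from 4323050 to 4329450 the values were 1.08, 1.10 and 0.15 ln, and on chromosome 3 from 3787200 to 3790200 they were 0.77, 0.33 and 0.76 ln.

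The clustered genes were found on all 7 chromosomes, but not evenly. Chromosome 1 held 58, chromosome 2 held 31, chromosome 3 held 35, chromosome 4 held 16, chromosome 5 held 43, chromosome 6 held 32 and chromosome 7 held 16. Per Mb of annotated span, which reaches to the last RefSeq gene of each NC12 chromosome, there were 7.69 clustered genes on chromosome 6 and 2.69 on chromosome 4, against 5.73 over all chromosomes. Of the mid-length genes, 32 of 59 (54.2%) were clustered on chromosome 6 and 16 of 49 (32.7%) on chromosome 4, and 231 of 527 (43.8%) over all. Chromosome 6 was the only one with more clustered than distant mid-length genes, at 32 against 27. With a distance limit of 2000 bp, the share on chromosome 6 was 32.2%, against 31.1% (164 of 527) over all chromosomes. In windows of 500 kb, the clustered genes were most numerous on chromosome 5 from 5000001 to 5500000, with 13, followed by 8 in each of 3 windows on chromosomes 1 and 3, and 12 of 83 windows held none.

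**Figure D2:**
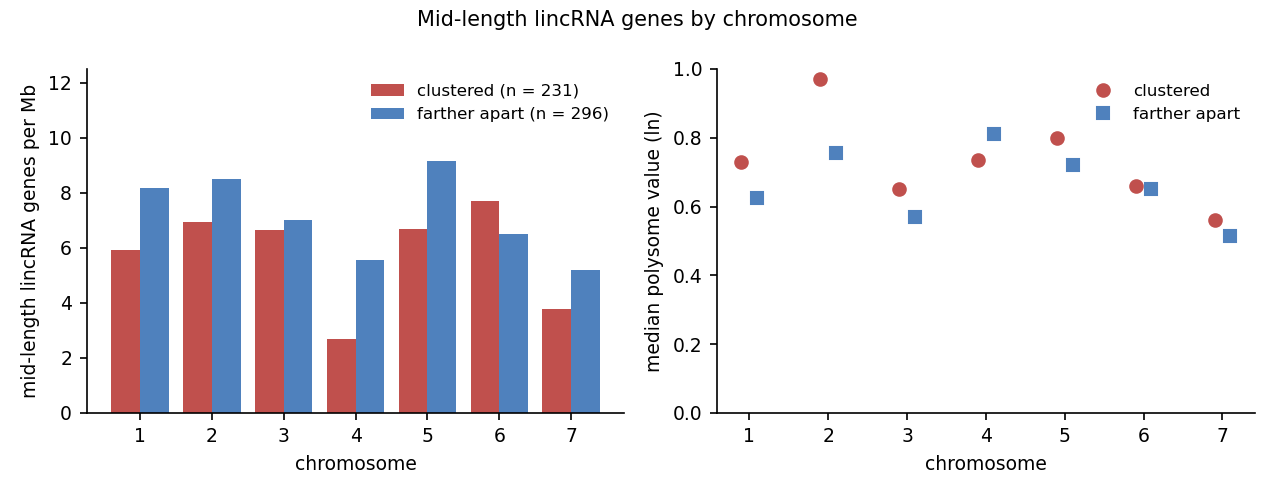
Mid-length lincRNA genes per Mb of annotated span (left) and their median polysome value on the ln scale (right) for chromosomes 1 to 7, with the 231 clustered genes in red and the 296 genes farther apart in blue. Chromosome 6 has the highest density of clustered genes, 7.69 per Mb, and chromosome 4 the lowest, 2.69 per Mb.

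Polysome values of the clustered genes were spread over the whole range of the list. They had a median of 0.74 ln (quartiles 0.455 and 1.035), against 0.655 ln (quartiles 0.36 and 1.00) for mid-length genes farther apart. The difference of the medians was 0.085 ln, while the standard deviation among genes was 0.373 ln in the clustered and 0.387 ln in the distant genes, so the distributions overlapped almost entirely. The means were 0.732 and 0.684 ln. A value above 1 ln was listed for 64 clustered genes (27.7%) and 71 distant ones (24.0%), and 7 (3.03%) and 9 (3.04%) lay within 0.1 of the highest value. Both sets had a median length of 551 bp, so length did not separate them. Within each of the 13 lengths, the median was higher in the clustered genes for 7, lower for 5 and equal for 1. At 501 bp, for example, it was 0.94 ln in 29 clustered and 0.57 ln in 24 distant genes, whereas at 701 bp it was 0.59 ln in 13 clustered and 0.95 ln in 19 distant genes. By chromosome, the median of the clustered genes was higher on 6 of 7, with the widest gap on chromosome 2 (0.97 against 0.755 ln), and lower on chromosome 4 (0.735 against 0.81 ln). Without chromosome 1, the difference of the medians was 0.025 ln. In the other length classes, close-lying genes also had the higher median, with 0.55 against 0.46 ln for lincRNA genes of up to 301 bp and 0.815 against 0.77 ln for those of 1001 bp or more.

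**Figure D3:**
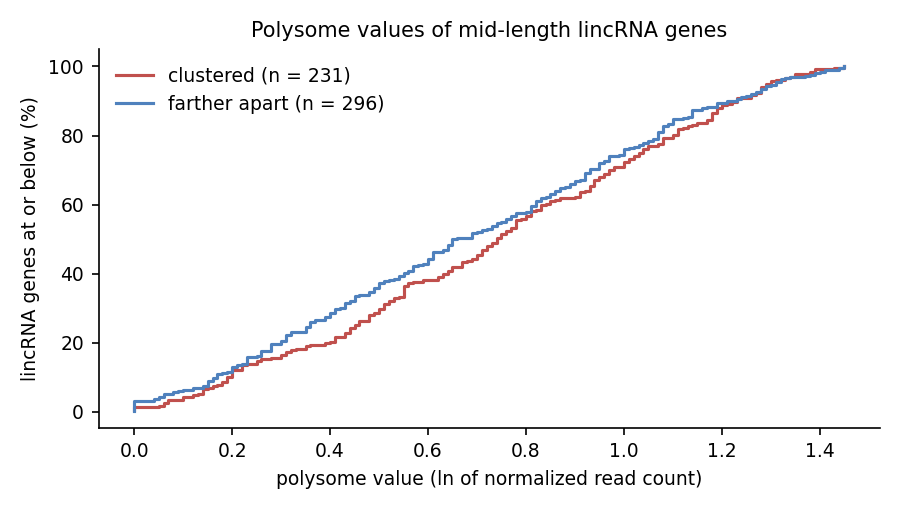
Share of lincRNA genes (%) at or below each polysome value (ln of the normalized read count) for the 231 clustered mid-length genes (red) and the 296 farther apart (blue). The curves run close to each other, with medians of 0.74 and 0.655 ln.

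A polysome value of 0 was listed for 3 clustered genes (1.30%) and 9 distant ones (3.04%). This gap of -1.74 percentage points was -0.65 points with a distance limit of 2000 bp and -0.23 points among lengths of 451 to 851 bp. The clustered ones lay on chromosome 1 from 7345350 to 7346000, on chromosome 5 from 46000 to 46350 and on chromosome 6 from 4045100 to 4045650. All 3 were within 200 bp of the neighbor, whose value was 0.18, 0.30 and 0.74 ln in the same order. At the other end, after the 1.45 ln on chromosome 6, the highest values were 1.43 ln on chromosome 1 from 8222000 to 8222850, beside a long lincRNA gene of 1.37 ln, and 1.39 ln in 2 genes. One of these lay on chromosome 3 from 4119000 to 4119950, beside a mid-length lincRNA gene of 0.75 ln, and the other on chromosome 5 from 4215750 to 4216250, beside a short one of 1.05 ln.

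Spacing within a cluster and polysome value were hardly related. The median distance to the neighbor was 1050 bp (quartiles 350 and 2325), and the shortest was 150 bp, since segments closer than 100 bp had been merged by the authors. Clustered genes less than 500 bp from a neighbor had a median of 0.70 ln (69 genes), those at 500 to below 1000 bp 0.75 ln (38 genes), those at 1000 to below 2000 bp 0.79 ln (57 genes) and those at 2000 to below 5000 bp 0.71 ln (67 genes). Spearman's rho between distance and value was 0.056 across the 231 genes, and Pearson's r was 0.058. Beyond the limit, the median was 0.81 ln for 79 genes at 5000 to below 10000 bp, 0.77 ln for 72 genes at 10000 to below 20000 bp and 0.58 ln for the 145 genes still farther apart. The lower median of the distant genes thus lay with those at 20000 bp or more, and genes directly outside the limit were not lower than the clustered ones.

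**Figure D4:**
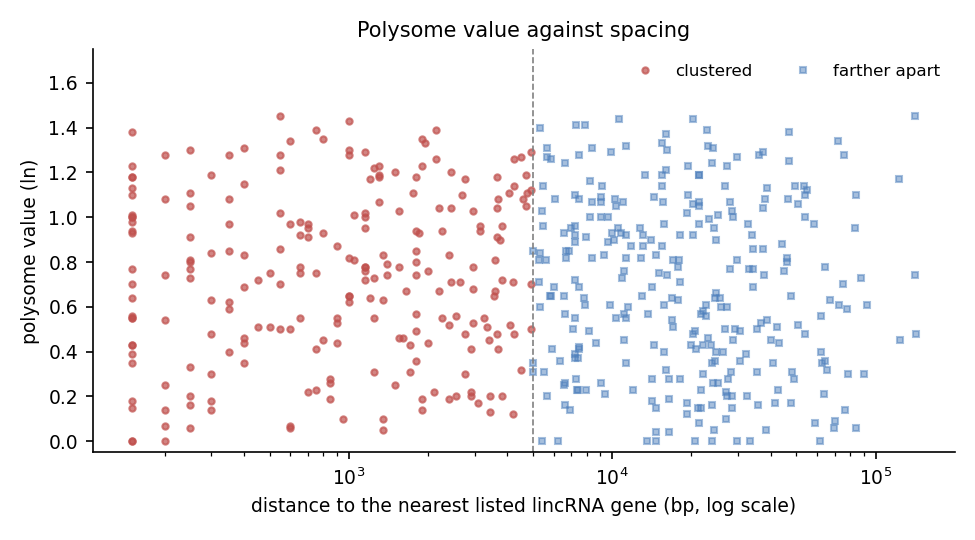
Polysome value (ln) of each mid-length lincRNA gene against the distance to the nearest listed lincRNA gene (bp, log scale), with clustered genes in red, genes farther apart in blue and the 5000 bp limit as a dashed line. Values between 0 and 1.45 ln occur on both sides of the limit.

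Values of neighboring genes differed about as much as those of genes farther apart. In 62 pairs of adjacent mid-length genes less than 5000 bp apart, the values differed by a median of 0.365 ln (quartiles 0.1425 and 0.635), against 0.37 ln (quartiles 0.18 and 0.62) in 455 consecutive pairs that were at least 5000 bp apart. The median was 0.51 ln in the 19 pairs closer than 500 bp, 0.43 ln in 22 pairs at 500 to below 2000 bp and 0.27 ln in 21 pairs at 2000 to below 5000 bp, so the median difference was largest in the closest pairs. The pair with the same value, 0.20 ln each, lay on chromosome 6 from 1486250 to 1490500 with 3450 bp between the genes. Values differed by 0.02 ln on chromosome 2 from 4323050 to 4328850 (1.08 and 1.10 ln) and on chromosome 4 from 4876500 to 4881200 (0.96 and 0.94 ln). The widest difference was found on chromosome 3 from 153750 to 156400, with 1.35 and 0.14 ln over a gap of 1900 bp. It was followed by a pair on chromosome 5 from 5838800 to 5840200, with 1.30 and 0.16 ln over 250 bp, and one on chromosome 7 from 1127650 to 1129500, with 0.35 and 1.38 ln over 150 bp.

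The clustered genes lay farther from coding genes. Measured with the NC12 coordinates of the list on the RefSeq annotation of NC12, the nearest protein-coding gene was a median of 1024 bp away (quartiles 573 and 2115.5), against 630.5 bp (quartiles 332.5 and 1135.5) for the distant ones. A coding gene was more than 2000 bp away for 62 clustered genes (26.8%) and 30 distant ones (10.1%). The stretch free of coding genes around them was also longer, with a median of 6143 bp for 213 clustered genes that overlap no coding gene and 3260 bp for 257 such distant genes. Close-lying lincRNA genes without a coding gene between them share the same stretch, which has to hold them all. The cluster rule thus favors longer stretches, and a shared stretch was counted once for each of its clustered genes. The median distance was longer for clustered genes on 6 of 7 chromosomes, most clearly on chromosome 7 (2034 against 533 bp), and shorter on chromosome 4 (648.5 against 719 bp). Leaving out any one chromosome kept the ratio of the medians between 1.57 and 1.69. The part of intergenic length in the spacing of lincRNA genes was not tested.

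With a split at 1000 bp, polysome values were higher far from coding genes in both sets. Mid-length genes more than 1000 bp from a coding gene had a median of 0.795 ln in clusters (118 genes) and 0.79 ln outside (84 genes). Those at up to 1000 bp had 0.65 ln in clusters (113 genes) and 0.635 ln outside (212 genes). On either side of 1000 bp, a split chosen after the values were seen, clustered and distant genes thus differed by 0.005 and 0.015 ln, compared with 0.085 ln over all of them. A split at 500 bp left a difference of -0.045 ln below (46 clustered and 114 distant genes) and 0.06 ln from there on (185 and 182 genes), and a split at 2000 bp left 0.06 ln up to that distance (169 and 266 genes) and -0.03 ln beyond (62 and 30 genes). In finer classes the sign varied. The clustered genes were 0.055 ln higher where a coding gene overlapped, 0.06 ln higher at 500 to below 1000 bp and 0.03 ln higher at 1000 to below 2000 bp. At 1 to below 500 bp the medians were 0.67 ln in clusters and 0.74 ln outside, and at 2000 bp or more 0.785 ln in clusters and 0.815 ln outside. In the distant genes the rise with distance was not steady, since the median was 0.65 ln at 500 to below 1000 bp.

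**Figure D5:**
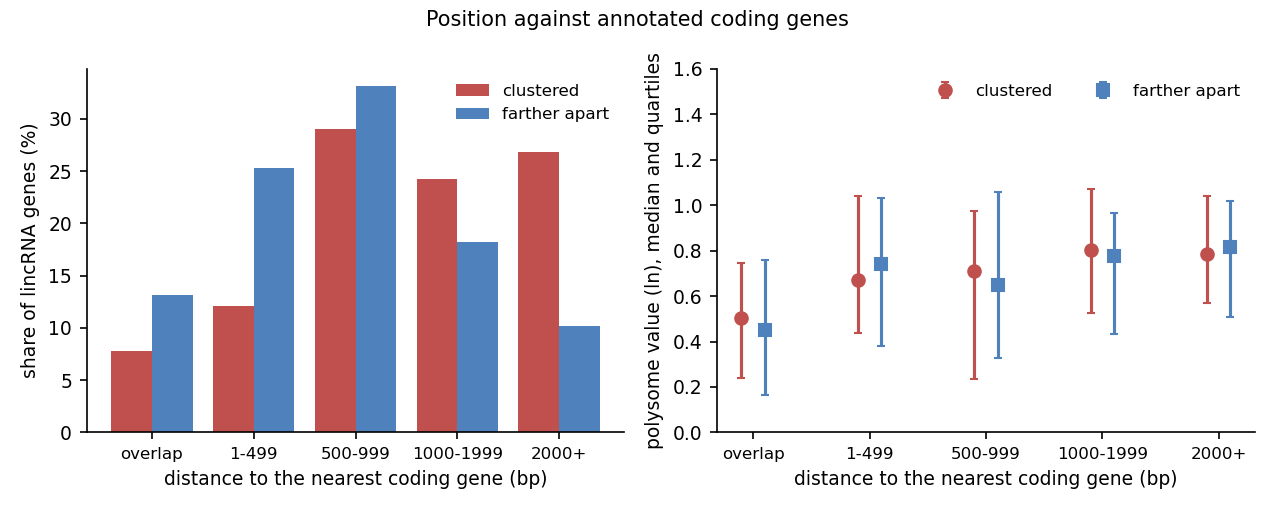
Share of the 231 clustered (red) and 296 distant (blue) mid-length lincRNA genes by the distance to the nearest coding gene in bp (left), and their polysome values in the same classes (right, ln, points are medians and bars reach from the lower to the upper quartile). Clustered genes are shifted to longer distances, 26.8% against 10.1% at 2000 bp or more, and within a class the quartile bars of both sets overlap.

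According to the RefSeq annotation, 18 clustered genes (7.79%) overlapped a coding gene, against 39 distant ones (13.2%), although the authors had kept units at least 500 bp from the coding genes of the NC10 model. The median polysome value of these genes was 0.505 ln in clusters and 0.45 ln outside, the lowest of all distance classes. The chitin synthase gene *chs-3* was overlapped by a clustered lincRNA gene on chromosome 5 from 5363650 to 5364350 with a value of 0.51 ln. An annotated noncoding RNA was overlapped by 8 clustered and 6 distant genes, and a tRNA gene by 2 in each set. On chromosome 1, the clustered genes from 5868850 to 5869750 (0.94 ln) and from 5869900 to 5870850 (0.43 ln), which are 150 bp apart, overlapped the same annotated noncoding RNA, NCU14026. It was the only pair of adjacent lincRNA genes less than 5000 bp apart, with a clustered gene among them, that shared an annotated gene.

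Most clusters held no complete coding gene. Of the 203 gaps below 5000 bp beside a clustered gene, 33 (16.3%) held a complete annotated gene, which was protein-coding in 26 and a tRNA or noncoding RNA gene in 9, and 2 gaps held both kinds. This share rose with the length of the gap, as it was 3.37% of 89 gaps below 1000 bp and 65.0% of 20 gaps at 4000 to below 5000 bp. No gap below 2000 bp held a complete coding gene. The authors had kept units at least 500 bp from coding genes of the NC10 model, so short gaps left little room for such a gene. The low share and its rise are thus in part set by this selection and by the distance limit. Counting any overlap, a gene reached into 59 gaps (29.1%). Over the 163 clusters, 136 had no coding gene inside, 24 had 1 and 3 had 2.

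The coding genes nearest to each end of the 163 clusters were 317 genes, of which 301 are in the strand-specific counts. Summed over genes, the 4 libraries held between 9725970 and 21422091 sense reads. The flanking genes had a median of 317 sense reads in the dark library, against 285 for the genes that flank distant mid-length lincRNA genes and 246 for all 9733 genes. With more than 2-fold of the dark count and at least 10 reads in any of the light libraries, 29 flanking genes (9.63%) passed, against 7.94% of all genes and 10.7% of 561 genes that flank mid-length lincRNA genes farther apart. At single time points, 18 passed at 30 min (5.98%, all genes 4.64%), 21 at 60 min (6.98%, all genes 5.19%) and 16 at 120 min (5.32%, all genes 3.76%). Among the 561 genes that flank distant ones, 5.53%, 6.06% and 6.42% passed at these times. The shares beside clusters were near the background, and the 3 comparisons share the 1 dark library.

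Of the 19 light and clock genes that were looked up, 2 flank a cluster, as do 301 of all 9733 counted genes. The clock gene *frq* (NCU02265), whose product closes the negative feedback loop of the circadian clock, lies 236 bp from a cluster of 4 lincRNA genes on chromosome 7 from 1123900 to 1129500. Along the NC10 chromosome, these had polysome values of 0.98 ln (1901 bp), 1.20 ln (201 bp), 0.35 ln (751 bp) and 1.38 ln (951 bp), and the last 2 are the mid-length genes. NCU02267 lies 1540 bp from the other side of the cluster. The sense count of *frq* was 254, 1929, 1842 and 960 reads at 0, 30, 60 and 120 min, which was 4.58-fold above dark at 30 min (95% interval 4.01 to 5.24) after normalization by total reads. Its antisense count was 149, 1232, 1668 and 575 reads in the same order. The other gene, *csp-1* (NCU02713), which encodes a transcriptional repressor, lies 1910 bp from a cluster on chromosome 1 from 3288650 to 3295400. Its lincRNA genes had 0.67, 1.04 and 0.87 ln, the first 2 of medium length. *csp-1* had 1395, 4719, 4054 and 1552 sense reads and a ratio of 2.04 at 30 min (1.92 to 2.17). The intervals are exact and compare libraries, not conditions.

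The largest light to dark ratios among flanking genes with at least 100 reads were those of 3 other genes. NCU09213, beside the lincRNA genes that overlap NCU14026, had 55, 72, 456 and 3020 sense reads at 0, 30, 60 and 120 min, and the 120 min library was 55.7-fold above dark (95% interval 42.7 to 74.1). NCU05568, beside the pair on chromosome 6 that had the same value of 0.20 ln, had 8, 540, 688 and 139 reads and a ratio of 42.7 at 60 min (21.6 to 99.3). The UV endonuclease gene *mus-18* (NCU08850) had 53, 1251, 2623 and 830 reads and a ratio of 24.6 at 60 min (18.7 to 32.9). It lies 1951 bp from a cluster on chromosome 5 from 141100 to 146150, with 1 mid-length gene of 1.05 ln between lincRNA genes of 1.30 and 0.40 ln. The gene *bek-1*, at 451 bp from the cluster of 7, had 16, 239, 196 and 58 reads and a ratio of 9.002 at 30 min (5.43 to 16.0) and 6.08 at 60 min (3.65 to 10.9), while *nit-6*, at 812 bp from a cluster of 6, had 9616, 11977, 13852 and 8889 reads and ratios of 0.751 (0.731 to 0.771) and 0.715 (0.697 to 0.734) at the same times. High and low polysome values thus occurred beside the genes with the highest light to dark ratios. Reads of the lincRNA genes themselves in these libraries were not analysed here.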

How the data were processed

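For the lincRNA list, the authors mapped polysome reads to NC10 with Bowtie 2.1.0, pooled all time points and deposited the log of the read count (read here as natural log, ln), normalized by total count and transcription unit length. The values are rounded to 2 decimals, and a pseudocount is not given in the sources used here, so values of 0 were taken as listed. For the strand-specific libraries, the authors deposited raw HTSeq counts per gene and strand. These were divided by the total reads stated for each library, and HTSeq summary lines were left out. Constant light exon counts were not used.

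Neighbors, clusters and distances were computed from NC10 coordinates. Gene positions came from the RefSeq annotation of NC12 and were compared with the NC12 coordinates of the list, which keep all spacings. That table gives no strand. Sets were compared by medians, quartiles and counts, without tests. The induction rule (2-fold, 10 reads) and the cluster rule were run on simulated data with planted changes and planted clusters. This checked only that the rules find what was planted, and does not measure false calls in single libraries. Intervals of count ratios are Clopper-Pearson (95%) and cover counting error only.

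Members and lists were chosen with earlier results of these data known. Named are clusters of 4 or more lincRNA genes or 3 mid-length genes, the extremes of value (with a tie for the third) and pair difference, the genes at the limits, and their flanking genes, the 3 with the largest light ratio and those among 19 light and clock genes. *chs-3* and the pair over NCU14026 were chosen after their values were seen. Alternatives changed the distance limit, neighbor class, build, length class, chromosomes, summary and read minimum. Python 3.11.15, numpy 2.4.6, pandas 2.3.3, scipy 1.17.1 and matplotlib 3.10.9 were used.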

Additional observations from a re-analysis of the deposited data

How the results depend on the processing

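Of 59 alternative values, none changed sign, but the counts, shares, ratios and absolute differences among them cannot be negative. The splits at 500 and 2000 bp from a coding gene were not among these values. There the difference of the median polysome values was -0.045 ln below 500 bp and 0.06 ln from there on. It was 0.06 ln up to 2000 bp and -0.03 ln beyond, so its sign did depend on the split. The number of clustered genes (231) was 164 with a limit of 2000 bp, 310 with 10000 bp and 125 when only mid-length neighbors counted. The difference in the share listed at 0 (-1.74 percentage points) was -0.65 points with 2000 bp and -0.23 points for lengths of 451 to 851 bp. The difference of the median polysome values (0.085 ln) was 0.04 ln with mid-length neighbors only, 0.049 ln for means, and between 0.025 and 0.10 ln when each chromosome was left out in turn, the lowest without chromosome 1. In alternatives chosen after seeing the data, it was 0.005 ln more than 1000 bp from a coding gene, 0.015 ln up to 1000 bp and 0.03 ln for genes that overlap no coding gene. The share of mid-length genes that are clustered was 46.9% on chromosome 4 with a limit of 10000 bp (32.7% with 5000 bp) and 32.2% on chromosome 6 with 2000 bp (54.2%), against 58.8% and 31.1% over all chromosomes at these limits (43.8%). The share of gaps with an annotated gene was 29.1% for any overlap and 3.62% for gaps below 2000 bp, against 16.3%. With at least 50 reads, 24 flanking genes passed in light (7.97%, all genes 6.45%), against 29 (9.63%, all genes 7.94%). No paired analysis was possible because each condition has 1 library. The depth behind single polysome values is unknown, so differences of a few hundredths of an ln unit cannot be judged.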

Other observations

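Some further coding genes beside the clusters had more than 2-fold of the dark count in a light library, and 3 were picked after their values were seen. *os-4* (NCU03071), a MAP kinase kinase kinase of the osmotic response, had 423, 2711, 1568 and 515 sense reads at 0, 30, 60 and 120 min and lay 1891 bp from a cluster of 3 lincRNA genes. *sah-1* (NCU04179), at 7589 bp from a cluster, had 1203, 5861, 6680 and 2526 reads, above 2-fold at each of the 3 light times. *xlr-1* (NCU06971), a regulator of genes for xylan breakdown, lay 540 bp from a pair and had 60, 64, 144 and 143 reads, above 2-fold at 120 min only.

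The low polysome values of lincRNA genes that overlap a RefSeq coding gene had exceptions among the clustered genes, also picked after their values were seen. A clustered gene on chromosome 4 from 5564600 to 5565000 overlapped NCU05260 and had 1.33 ln, and one on chromosome 2 from 2774700 to 2775200 overlapped NCU01659 and had 1.26 ln, against a median of 0.505 ln over the 18 such genes.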
